A study of Mus musculus with 37 samples.

Results

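The genes described here are 9 genes of myelin and of the oligodendrocytes that make it (Mbp, Mobp, Mal, Cnp, Mag, Cldn11, Ermn, Mog and Opalin), chosen by name from the 57180 genes in the count tables. All 9 were present, and all 9 passed the filter on low counts in the age fit of each model and in the joint fit. The libraries hold RNA bound to EGFP-tagged ribosomes of ventral midbrain neurons (SNc and VTA). These genes are taken here as genes of cells other than those tagged, though counts per gene do not show which cells the reads came from. Their levels were compared between cell types, ages and batches. All mice carried the NuTRAP allele, an EGFP-L10a fusion at Rosa26 that is silent until Cre removes its stop. In DAT;NuTRAP mice Cre was driven by the promoter of Slc6a3, the dopamine transporter gene, and in VGAT;NuTRAP mice by that of Slc32a1, the vesicular GABA transporter gene, so that tagged ribosomes mark neurons with either transporter. Each library came from 1 mouse. There were 10 young and 9 old DAT;NuTRAP mice (5 young females, 5 young males, 4 old females and 5 old males) and 10 young and 8 old VGAT;NuTRAP mice (6 young females, 4 young males, 5 old females and 3 old males). Young mice were 7 to 10.5 months old and old mice 21 months, except for 1 VGAT old female of 24 months. The labels place 8 DAT libraries in a first batch and 11 in a second, and 6 and 12 of the VGAT libraries. They do not say what a batch consists of, or whether the first batch of one model is the same as that of the other. Input RNA from the same tissue was not analysed here.

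Library totals ran from 13841253 to 38235015 counts. The 19 DAT libraries held 2620 to 4250 CPM (scaled counts per 1e6) of Slc6a3 and the 18 VGAT libraries 248 to 1230, while Gad1, a GABA synthesis enzyme, stood at 54.1 to 253 CPM in DAT and 1391 to 2270 CPM in VGAT libraries, so every library matched its labelled cell type on these markers. CPM here is the count divided by the library total after scaling by TMM factors computed over all 37 libraries. A gene is called higher or lower where the quasi-likelihood test of edgeR gave a Benjamini-Hochberg adjusted p under 0.05 over all genes tested. Genes with at least 1 count numbered 14323 to 18170 in second-batch DAT libraries, below the 19085 to 21051 of first-batch DAT libraries and the 18485 to 21803 of all VGAT libraries.

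Oligodendrocytes wrap axons in myelin, a stack of compacted membrane held together by a small set of abundant proteins. Mbp encodes a main structural protein of the sheath, and its mRNA is carried out along the processes and translated close to the growing sheath. Cnp keeps cytoplasmic channels open, Mag sits on the membrane that faces the axon, Mog lies on the outermost surface, Cldn11 builds the tight junctions between the layers, Mal organises membrane lipids, and Ermn and Opalin mark late, myelinating oligodendrocytes. SOX10 and MYRF are the transcription factors best known for switching these genes on. Neither Slc6a3 nor Slc32a1 is a gene of oligodendrocytes, which are therefore not expected to carry tagged ribosomes.

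RefSeq promoter windows of GRCm38.p6, each of 300 bases with 250 before and 50 after a transcription start, were found for 8 of the 9 genes and for no window of Mbp. Both strands were searched for ACAAAG (reverse complement CTTTGT), a core of the sites that SOX proteins bind, and for CTGGCAC (reverse complement GTGCCAG), a core described for MYRF. The windows shown are those of the 4 members with a match, printed 5′ to 3′ on the strand of the gene, with matches to either motif in capitals. For Mag, which has 3 windows, the first is shown.
Mobp: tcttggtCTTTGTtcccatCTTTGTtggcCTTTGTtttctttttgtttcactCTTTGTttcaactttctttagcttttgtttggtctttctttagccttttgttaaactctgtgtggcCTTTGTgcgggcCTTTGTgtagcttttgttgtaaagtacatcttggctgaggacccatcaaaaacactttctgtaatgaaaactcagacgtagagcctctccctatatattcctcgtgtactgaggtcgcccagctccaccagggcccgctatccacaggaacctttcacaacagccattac
Cnp: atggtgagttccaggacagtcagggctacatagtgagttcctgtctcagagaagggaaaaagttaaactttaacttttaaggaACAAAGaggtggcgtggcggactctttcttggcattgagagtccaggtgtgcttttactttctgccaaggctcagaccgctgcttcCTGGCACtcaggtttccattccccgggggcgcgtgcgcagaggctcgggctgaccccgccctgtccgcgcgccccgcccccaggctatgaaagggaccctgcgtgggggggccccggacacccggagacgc
Mag: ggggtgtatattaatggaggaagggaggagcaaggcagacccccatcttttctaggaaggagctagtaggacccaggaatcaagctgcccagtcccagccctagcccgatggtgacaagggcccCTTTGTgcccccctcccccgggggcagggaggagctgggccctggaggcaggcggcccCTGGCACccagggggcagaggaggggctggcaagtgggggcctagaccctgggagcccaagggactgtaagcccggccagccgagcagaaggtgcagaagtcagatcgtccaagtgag
Opalin: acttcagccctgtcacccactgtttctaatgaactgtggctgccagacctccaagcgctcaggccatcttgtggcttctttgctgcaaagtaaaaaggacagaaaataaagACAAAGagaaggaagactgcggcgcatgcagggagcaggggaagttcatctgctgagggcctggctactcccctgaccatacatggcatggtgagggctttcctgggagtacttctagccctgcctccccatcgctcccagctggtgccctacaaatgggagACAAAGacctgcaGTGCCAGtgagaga

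These windows lie at chr9:120149492-120149791 (plus strand) for Mobp, chr11:100574689-100574988 (plus) for Cnp, chr7:30914814-30915113 (minus) for Mag and chr19:41077064-41077363 (minus) for Opalin. The count tables were made on the later build mm39, so these positions are not comparable with the GRCm39 positions given for the genes. The Mobp window holds 6 matches to the SOX-type motif, between 243 and 120 bases before the start, and it is the only 1 of 32851 windows in the table with 6 or more. Opalin has 2 such matches, and Cnp and Mag 1 each. Cnp, Mag and Opalin each have 1 match to the MYRF-type motif. The windows of Mal, Cldn11, Mog and Ermn have neither. Of all windows, 18.7% hold the SOX-type and 5.01% the MYRF-type motif at least once. TATAAA (reverse complement TTTATA), the TATA-type motif, was in none of the members' windows and in 13.6% of all. The SOX-type and MYRF-type matches share no bases in these windows. A match is a run of letters and was not tested as a binding site.

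Second-batch DAT libraries held more myelin RNA than first-batch DAT libraries, for every one of the 9 genes. Mbp was at 196, 251 and 286 CPM (lowest, median and highest of 8) in the first batch and at 422, 535 and 831 CPM (of 11) in the second, and the groups did not overlap. Cnp was at 26.4, 40.4 and 54.5 CPM in the first batch and 83.7, 118 and 183 CPM in the second, again without overlap. Together, the 9 genes summed to 394, 480 and 588 CPM in the first batch and 776, 1003 and 1539 CPM in the second. As a share of all counts the median rose from 0.0485% to 0.0981%.

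The call was the same for all 9 members, against 16.8% of the 14889 genes tested that were called higher in the second batch. The log2 fold change (second against first batch, with age in the model) was 1.24 ± 0.115 (SE) for Mbp (adjusted p = 1.45e-08) and 1.66 ± 0.123 for Cnp (adjusted p = 2.58e-11). The median over the members was 1.60, beside −0.0047 over all genes tested. Every member stayed called with each of the 19 libraries left out in turn. Among old libraries alone 9 of 9 were called, against 10.9% of all genes called higher there, and among young libraries alone 7 of the 8 tested, against 19.7%.

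**Figure D1:**
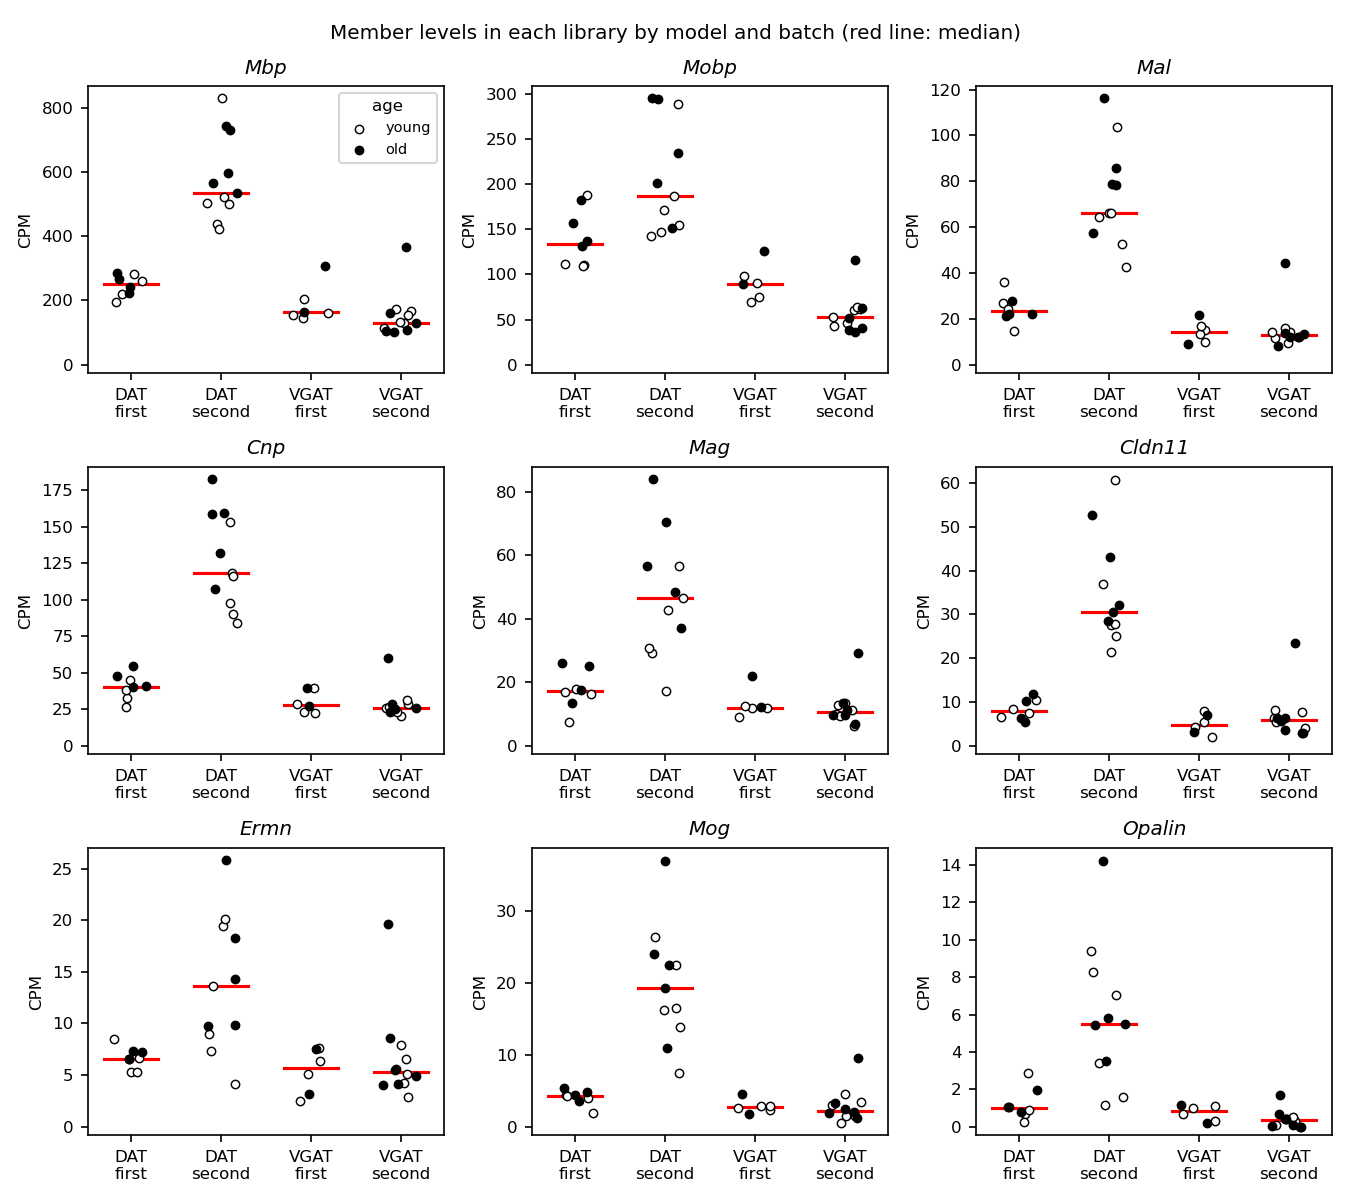
Each panel plots 1 of the 9 genes, with TMM-scaled CPM on a linear axis and 1 dot per library, by model and batch. Open dots are young mice, filled dots are old mice, and the red bar is the median. In every panel the median of the second-batch DAT libraries is the highest of the 4, while for Mobp, Mag, Opalin and Ermn their dots overlap those of the first-batch DAT libraries, and in the VGAT second batch old male replicate 2 lies above the other libraries of that batch.

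Genes of the compact membrane and its junctions differed in how far they moved. Cldn11, the tight-junction claudin, was at 5.46, 7.90 and 11.9 CPM in first-batch and 21.3, 30.5 and 60.8 CPM in second-batch DAT libraries, a log2 fold change of 2.09 ± 0.199 (adjusted p = 2.29e-09). Mal was at 14.7, 23.3 and 35.9 CPM against 42.5, 66.2 and 116 CPM (1.60 ± 0.175, adjusted p = 9.61e-08). For both genes all 11 second-batch libraries exceeded the highest first-batch one. Mobp, a basic protein of compact myelin, moved least. It was at 110, 134 and 188 CPM in the first batch and 142, 186 and 296 CPM in the second, with 5 of 11 second-batch libraries above the highest first-batch one (0.56 ± 0.158, adjusted p = 0.00873). Mobp therefore made up a smaller part of the summed members in the second batch (median 17.8%, against 28.5% in the first), while Mbp made up 51.9% against 49.8%.

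Mog and Mag are genes of the outer and the axon-facing surface. Mog was at 1.91, 4.31 and 5.42 CPM in first-batch and 7.42, 19.4 and 37 CPM in second-batch DAT libraries, with no overlap and a log2 fold change of 2.28 ± 0.241 (adjusted p = 1.06e-08). Mag was at 7.34, 17.1 and 26.0 CPM against 17.2, 46.5 and 83.9 CPM, with 10 of 11 second-batch libraries above all first-batch ones (1.44 ± 0.219, adjusted p = 1.35e-05). Of the late oligodendrocyte genes, Opalin had the lowest median level per kilobase of exon of all members. It had 5 to 54 counts per first-batch and 29 to 317 per second-batch library, that is 0.260, 0.981 and 2.88 CPM against 1.18, 5.50 and 14.2 CPM (2.30 ± 0.484, adjusted p = 0.000365), and 9 of 11 second-batch libraries lay above the first batch. Ermn was at 5.25, 6.60 and 8.48 CPM against 4.12, 13.7 and 25.8 CPM, with 9 of 11 second-batch libraries above the first batch and 1 below it (1.06 ± 0.255, adjusted p = 0.00153).

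In VGAT libraries the batches did not differ in the same way. Mbp was at 144, 163 and 306 CPM (lowest, median and highest of 6) in the first batch and 100.5, 131 and 365 CPM (of 12) in the second, and Cnp at 22.2, 27.6 and 39.4 CPM against 20.4, 25.8 and 60.1 CPM. The summed members were at 282, 315 and 535 CPM and 196, 249 and 670 CPM. Mobp alone was called, and it was lower in the second batch: 69.9, 89.6 and 126 CPM against 36.0, 52.3 and 116 CPM, with 11 of 12 second-batch libraries below the lowest first-batch one (log2 fold change −0.73 ± 0.217, adjusted p = 0.0193). Of all 15607 genes tested, 13.9% were called lower. The other 8 members had log2 fold changes from −1.05 (Opalin) to 0.39 (Cldn11), with adjusted p from 0.289 to 0.996. The interval for Mbp reached from −0.88 to 0.21 and that for Cnp from −0.54 to 0.31. The count rested on single libraries: without VGAT old male replicate 1 no member was called, and without VGAT old male replicate 2 there were 2. The shares of all genes called in these fits are not reported here.

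**Figure D2:**
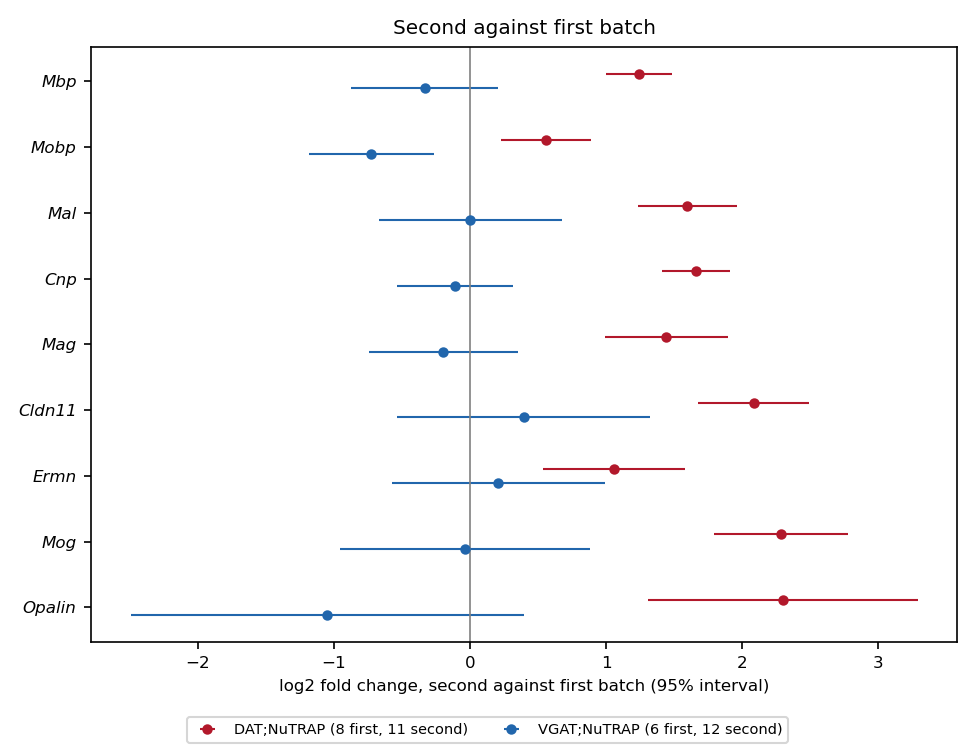
Log2 fold change of the second against the first batch for each of the 9 genes in DAT (red) and VGAT (blue) libraries, with 95% intervals on the x axis. All DAT intervals lie above 0, and of the VGAT intervals that of Mobp lies below 0 and the other 8 include it.

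The difference between the 2 batch effects was tested directly, in a comparison added after both had been seen. The log2 batch effect was smaller in VGAT than in DAT libraries for 8 of 9 members, against 14.5% of 15540 genes called lower. The differences were −1.57 ± 0.274 for Mbp, −1.28 ± 0.270 for Mobp, −1.59 ± 0.350 for Mal, −1.77 ± 0.228 for Cnp, −1.63 ± 0.342 for Mag, −1.69 ± 0.451 for Cldn11, −2.32 ± 0.476 for Mog and −3.35 ± 0.871 for Opalin, with adjusted p from 1.45e-07 to 0.0036. Ermn, at −0.84 ± 0.430 (adjusted p = 0.141), was not called. Without VGAT old male replicate 2, all 9 were called, with the share of all genes in that fit not reported here.

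The batch difference of the DAT libraries extended to other oligodendrocyte genes and to other glia. Of 10 further myelin membrane genes 8 were called higher in the second batch, among them Tmem88b (2.23 ± 0.166) and Plekhb1 (1.09 ± 0.110). Of 6 oligodendrocyte transcription factors tested 4 were called higher, namely Olig1 (1.50 ± 0.143), Sox10 (2.0 ± 0.241), Nkx6-2 (2.19 ± 0.352) and Olig2 (1.38 ± 0.297). Myrf was not called (0.34 ± 0.220, adjusted p = 0.258). Of 16 other genes of mature oligodendrocytes 10 were called higher, such as Car2, a carbonic anhydrase (0.83 ± 0.127), and Trf, transferrin (1.12 ± 0.213). Of 7 gap junction and axon contact genes 4 were higher, including the connexin Gjb1 (1.52 ± 0.374), and 1 was lower, Nfasc, which neurons also express (−0.24 ± 0.084, adjusted p = 0.0282). Of 10 lipid synthesis genes only Fa2h, which hydroxylates myelin fatty acids (1.90 ± 0.472), and Fdft1, a cholesterol synthesis enzyme (0.26 ± 0.081), were called. Of 10 genes of precursors and newly formed oligodendrocytes none was called by edgeR, with 2 at an unadjusted p under 0.05 and a median of 0.63. That unadjusted p was reached by 6219 of the 14889 genes tested.

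Astrocyte markers moved with the myelin genes in the DAT libraries. Their summed level was 1761, 2225 and 3481 CPM in the first batch and 2613, 3176 and 4388 CPM in the second, and 9 of 15 were called higher (median log2 fold change 0.44), Slc1a2 and Apoe among them. Of 14 microglia markers 6 were called higher (median 1.17), with summed levels of 54.5, 62.5 and 122 CPM against 59.6, 99.4 and 181 CPM. Of 14 endothelial and mural markers 2 were called higher, and of 3 choroid plexus and ependymal markers none, with none at an unadjusted p under 0.05. Slc6a3 was lower in the second batch (−0.33 ± 0.055, adjusted p = 2.22e-05) and Th, the dopamine synthesis enzyme, higher (0.37 ± 0.097, adjusted p = 0.00433), while Gad1 and Gad2 were lower (−0.87 ± 0.148 and −0.72 ± 0.211). With the summed astrocyte level as a further term, chosen after the values had been seen, 5 of 9 members stayed called, against 10.5% of all genes called higher in that fit, and Mobp was at −0.051. The astrocyte level itself varied with the members over these libraries, so the term also takes out variation of the members.

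All 9 members were lower in VGAT than in DAT libraries. Over both batches Mbp was at 196, 438 and 831 CPM in the 19 DAT and 100.5, 154 and 365 CPM in the 18 VGAT libraries, and 15 of 18 VGAT libraries lay below the lowest DAT one. Cnp was at 26.4, 90.3 and 183 CPM and 20.4, 26.1 and 60.1 CPM, with 10 of 18 below. Opalin was at 0.260, 2.88 and 14.2 CPM in DAT and 0, 0.410 and 1.68 CPM in VGAT libraries, where 2 libraries had a count of 0, which at 3 counts allows up to 0.0844 and 0.104 CPM.

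The joint fit, with age and batch as terms, called 9 of 9 members lower, against 32.3% of 15540 genes. Its batch term was shared by both models, although the batch effect differed between them for most members. The fold changes and their p therefore average over unequal differences within the batches. The log2 fold changes (VGAT against DAT) were −1.34 ± 0.187 for Mbp, −1.39 ± 0.168 for Mobp, −1.50 ± 0.188 for Cnp, −1.73 ± 0.213 for Mal, −1.77 ± 0.254 for Cldn11, −1.37 ± 0.214 for Mag, −1.95 ± 0.305 for Mog, −2.71 ± 0.533 for Opalin and −0.78 ± 0.212 for Ermn, with adjusted p from 5.05e-09 to 0.00138. Ermn differed least and Opalin most. In bulk RNA, fewer cells of a type in the sample and less RNA carried over per cell cannot be told apart. Nor can either be told apart from a difference in processing, since the labels do not say whether the models shared their batches.

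Within batches the size of this difference was unequal. Among second-batch libraries 9 of 9 members were called, against 29.9% of all genes called lower, with a median of −2.15 and a range from −1.09 (Ermn) to −3.95 (Opalin), and for Mbp, Mobp and Cnp all 12 VGAT libraries lay below the lowest of the 11 DAT libraries. Among first-batch libraries the median was −0.48 and 3 members were called, against 23.7% of all genes: Mal (−0.77, adjusted p = 0.00811), Cldn11 (−0.74, adjusted p = 0.0360) and Mobp (−0.58, adjusted p = 0.00521). In that batch Mbp (−0.35, adjusted p = 0.0626), Cnp (−0.38, adjusted p = 0.0520), Mog (−0.48, adjusted p = 0.0923), Mag (−0.33, adjusted p = 0.223), Ermn (−0.30, adjusted p = 0.304) and Opalin (−0.68, adjusted p = 0.279) did not pass. The summed members had a median of 480 CPM in DAT and 315 CPM in VGAT first-batch libraries and of 1003 and 249 CPM in the second batch.

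**Figure D3:**
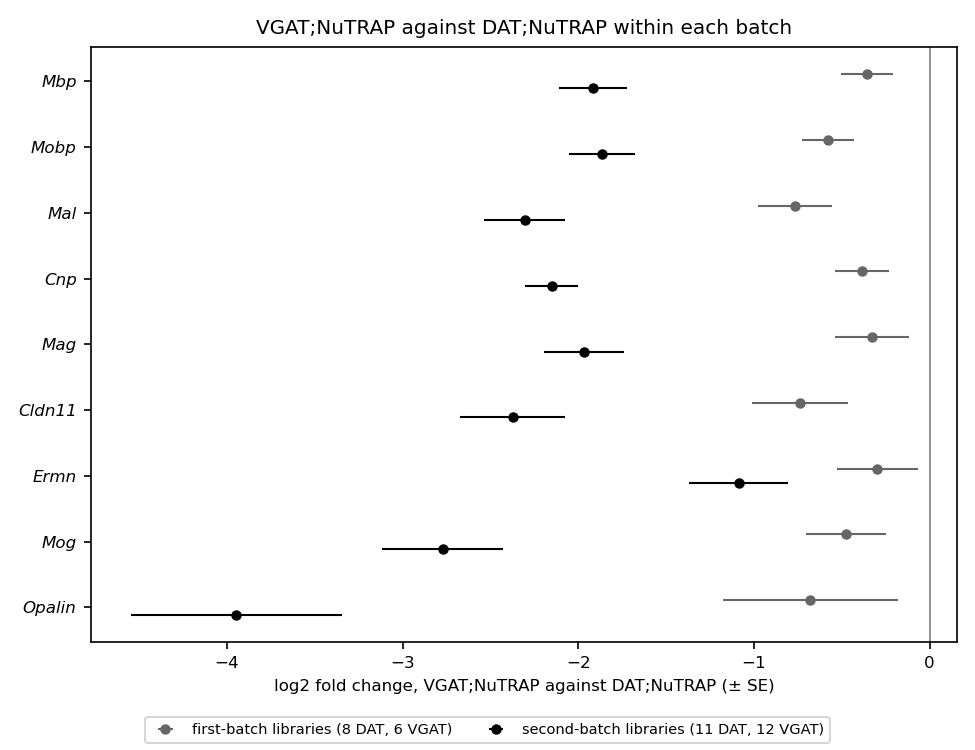
Log2 fold change of VGAT against DAT libraries (± SE, x axis) for each of the 9 genes, fitted within first-batch (grey) and within second-batch libraries (black). The values lie between −0.30 and −0.77 in the first batch and between −1.09 and −3.95 in the second.

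Other cell types differed between the models too. The 10 further myelin membrane genes were all called lower in VGAT libraries, and so were 13 of 16 other mature oligodendrocyte genes, while S1pr5, a sphingosine-phosphate receptor (0.71 ± 0.179), and Hhip, a hedgehog binding protein (0.72 ± 0.292), were higher. Of 7 transcription factors 5 were lower and 2 higher, Nkx2-2 (1.74 ± 0.389) and Zfp488 (1.28 ± 0.523). Of 7 gap junction and axon contact genes 5 were lower and Cntn2 (0.20 ± 0.049) higher. Of 10 lipid genes 8 were lower, and Ugt8a (1.48 ± 0.156) and Gal3st1 (0.91 ± 0.159), which make galactocerebroside and sulfatide, were higher. Of 10 precursor genes 6 were lower, such as Pdgfra (−1.60 ± 0.261), and 3 higher, Lhfpl3 (1.31 ± 0.092), C1ql1 (1.59 ± 0.20) and Pcdh15 (0.47 ± 0.127). Astrocyte markers were lower for 14 of 15, endothelial and mural markers for 13 of 14 and microglia markers for 2 of 14. Summed levels of the choroid plexus and ependymal markers went the other way, at 2.82, 5.78 and 13.1 CPM in DAT and 8.86, 14.4 and 23.0 CPM in VGAT libraries. So did those of the precursor genes, at 58.3, 77.3 and 139 CPM in DAT and 131, 151 and 198 CPM in VGAT libraries. The share of these other cells in the member values was not tested.

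Old and young DAT libraries did not differ in any member at the threshold. Mbp was at 196, 430 and 831 CPM in 10 young and 223, 535 and 743 CPM in 9 old libraries, Cnp at 26.4, 87.0 and 153 CPM and 40.1, 107 and 183 CPM, and Mag at 7.34, 23.5 and 56.7 CPM and 13.4, 37.2 and 83.9 CPM. The groups overlapped for each of these genes. Of all 14889 genes 0.00672% were called, and of the members 0 by edgeR and 0 by DESeq2, with 2 members at an unadjusted p under 0.05: Cnp (log2 fold change 0.40 ± 0.115, adjusted p = 0.636) and Mag (0.59 ± 0.207, adjusted p = 0.884). That unadjusted p was reached by 786 of the genes. All 9 estimates were positive, with a median of 0.27 and a range from 0.12 (Cldn11) to 0.59. The 95% interval for Mbp was −0.05 to 0.40. The 15 astrocyte markers were all positive as well (median 0.47, none called by edgeR, 10 at an unadjusted p under 0.05), and with the summed astrocyte level as a further term 7 of 9 member estimates were negative, with a median of −0.10. That summed level correlated with the member mean at 0.719 in DAT libraries after batch and age means were taken out. Such a term therefore also takes out variation of the members, and what turned the signs was not tested.

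In VGAT libraries the age estimates rested on 1 mouse. Mbp was at 113, 154 and 203 CPM in 10 young and 100.5, 145 and 365 CPM in 8 old libraries, and Cnp at 20.4, 26.1 and 39.4 CPM and 22.9, 26.3 and 60.1 CPM, so that medians were alike and the old group reached higher. Of 15607 genes 0.0256% were called, and of the members 0 by edgeR and 0 by DESeq2, with 0 at an unadjusted p under 0.05. That unadjusted p was reached by 934 of the genes. The 9 estimates were positive, from 0.18 (Mobp) to 0.44 (Opalin), with a median of 0.36. Without old male replicate 2 the median was −0.03 and 3 of 9 were positive, and with the summed astrocyte level as a further term all 9 were negative, from −0.20 to −0.63, with 0 called by edgeR and 3 at an unadjusted p under 0.05. In VGAT libraries that summed level correlated with the member mean at 0.70, so the term again takes out variation of the members. The summed members were at 670 CPM in old male replicate 2 (second batch), 535 CPM in old male replicate 1 (first batch) and 200 CPM in old male replicate 3 (second batch). The astrocyte sum was 1989 CPM in replicate 2 and 2072 CPM in replicate 1, and 1391 to 1766 CPM in the other VGAT libraries; the other mature oligodendrocyte genes summed to 277 and 182 CPM, and to 107 to 159 CPM in the rest. Microglia markers in replicate 2 were at 80.4 CPM, within the 23.9 to 223 CPM of the VGAT libraries.

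**Figure D4:**
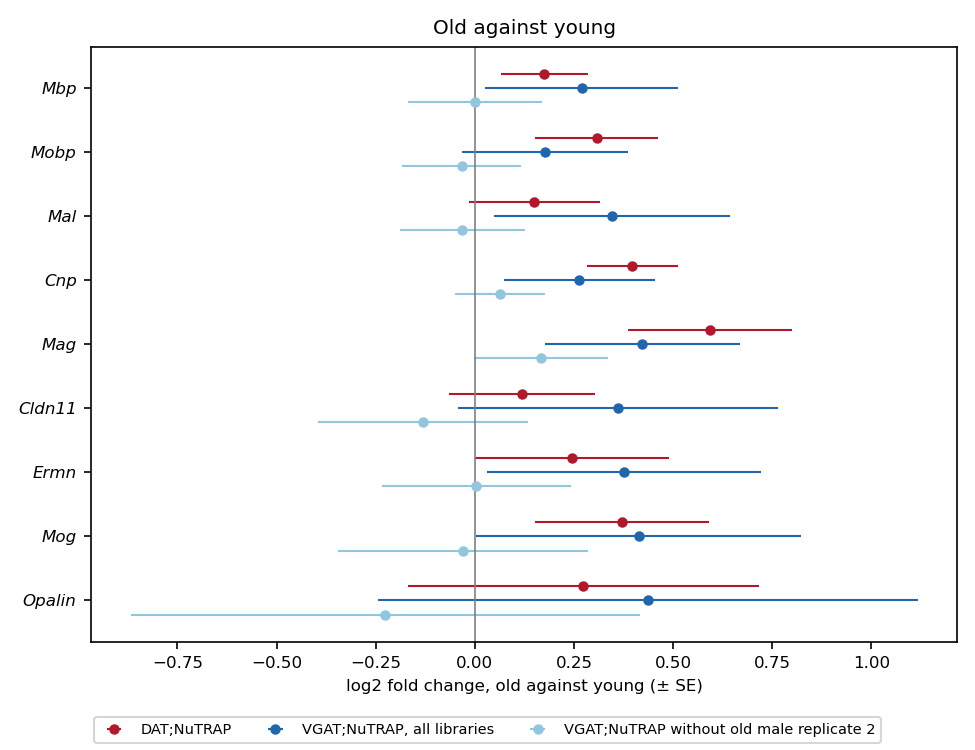
Log2 fold change of old against young mice (± SE, x axis) for the 9 genes in DAT libraries (red), in all VGAT libraries (blue) and in VGAT libraries without old male replicate 2 (light blue). All red and blue points lie above 0, and 6 of the 9 light blue points lie below it.

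By sex, the age estimates pointed in different directions, and no member was called by edgeR in any of the 4 sex-separate fits. In DAT females all 9 estimates were positive with a median of 0.60, and 4 had an unadjusted p under 0.05: Cnp (0.64 ± 0.142, adjusted p = 0.436), Mbp (0.37 ± 0.090, adjusted p = 0.636), Mobp (0.64 ± 0.162, adjusted p = 0.922) and Mag (0.93 ± 0.304, adjusted p = 1.00). DESeq2 called 3 of these, against 0.184% of all genes called higher by it. In DAT males the median was 0.10, with 0 at an unadjusted p under 0.05 and 0 called by DESeq2. In VGAT females all 9 were negative, with a median of −0.17 and 1 at an unadjusted p under 0.05 (Opalin, −1.58 ± 0.738). In VGAT males all 9 were positive, with a median of 0.97, 2 at an unadjusted p under 0.05 (Mag, 1.00 ± 0.350, and Cldn11, 1.19 ± 0.431) and 0 called by DESeq2; without old male replicate 2 the median was 0.22. Of all genes, 0% were called in DAT females, 0% in DAT males, 0.032% in VGAT females and 0.0315% in VGAT males. An unadjusted p under 0.05 was reached by 601 of 14839, 868 of 15789, 873 of 15617 and 813 of 15875 genes, in the same order. DESeq2 also called 0 members in VGAT females.

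The tests of the differences themselves called no member. For age by sex the median difference (male minus female) was −0.42 in DAT, with 2 members at an unadjusted p under 0.05, and 1.09 in VGAT, with 6, and 0% of genes were called in either. That unadjusted p was reached by 561 of 14889 genes in DAT and 798 of 15607 in VGAT. Without VGAT old male replicate 2 the VGAT median was 0.32, with 1 member at an unadjusted p under 0.05. For age by cell type (VGAT minus DAT) the median was 0.09, with 0 members at an unadjusted p under 0.05 and 0% of genes called. It was −0.34 without VGAT old male replicate 2. DESeq2 called 0 members in each of these 3 tests.

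Compared per kilobase of exon (GENCODE vM39, GRCm39), Mbp was the most abundant member in both models, with a median of 44.9 CPM per kb in DAT and 15.8 in VGAT libraries. It is a gene of 110.6 kb at chr18:82493207-82603763. In DAT libraries Cnp (22.3 CPM per kb), Mal (18.6) and Mobp (17.4) followed, then Cldn11 (10.2), Mag (5.87), Mog (4.82), Ermn (1.98) and Opalin (0.457). Neighbours in this order overlapped over libraries, since the ranges of Cnp (6.53 to 45.1) and Mal (5.22 to 41.1), for example, nearly coincided. In VGAT libraries the order was Mbp, Mobp (6.94), Cnp (6.44), Mal (4.73), Mag (2.31), Cldn11 (2.26), Ermn (1.24), Mog (1.10) and Opalin (0.0650). The place of Mobp depended on batch. In first-batch DAT libraries its median (14.9 CPM per kb) was above those of Cnp (9.99) and Mal (8.24), and in the second batch (20.8) below both (29.2 and 23.4). In first-batch VGAT libraries Mobp (9.98) was above Cnp (6.82), and in second-batch VGAT libraries (5.83) below it (6.36).

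Most members varied less in their proportion to each other than in level. In DAT libraries the log2 level of Cnp had an SD of 0.889, and its log2 ratio to the mean of the other members an SD of 0.199. For Mbp the SDs were 0.668 and 0.248. Over both batches Mobp had an SD of 0.454 in level and a larger one of 0.601 in ratio, but within the first batch its SDs were 0.316 and 0.178 and within the second 0.418 and 0.356. Within first-batch DAT libraries the ratio varied more than the level for Mal (0.362 in level and 0.390 in ratio) and Cldn11 (0.371 and 0.382). Opalin had 1.23 and 0.817 over both batches at its low counts. In VGAT libraries of both batches the SD fell from 0.497 to 0.220 for Mag and from 0.490 to 0.243 for Mbp, and for Mobp from 0.540 to 0.454. Within first-batch VGAT libraries Mobp varied more in ratio than in level (0.297 in level and 0.364 in ratio).

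After batch and age means were taken out, the log2 level of Cnp had a Pearson correlation of 0.841 with the mean of the other members over 19 DAT libraries and of 0.910 over 18 VGAT libraries, and Opalin of 0.179 and 0.861. Of 13144 other genes, the 10 most like the mean of the members by the lower of the correlations in the 2 models included Csrp1 (0.793 in DAT and 0.813 in VGAT), Glul, Gpm6b, Agt, Trf, Tmem63a, Slc6a11, Il33 and Hepacam (0.745 and 0.722). Trf, Tmem63a and Il33 were on the list of other mature oligodendrocyte genes. Glul (glutamine synthetase), Agt (angiotensinogen), Slc6a11 (a GABA transporter) and Hepacam (a cell adhesion protein) are best known from astrocytes. The summed astrocyte markers correlated with the member mean at 0.719 and 0.70, the other mature oligodendrocyte genes at 0.724 and 0.942, the precursor genes at 0.256 and −0.349, and the dopamine neuron label genes at −0.520 and −0.053. The points in each correlation share a library and its scaling, and in VGAT libraries old male replicate 2 is the highest of them.

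**Figure D5:**
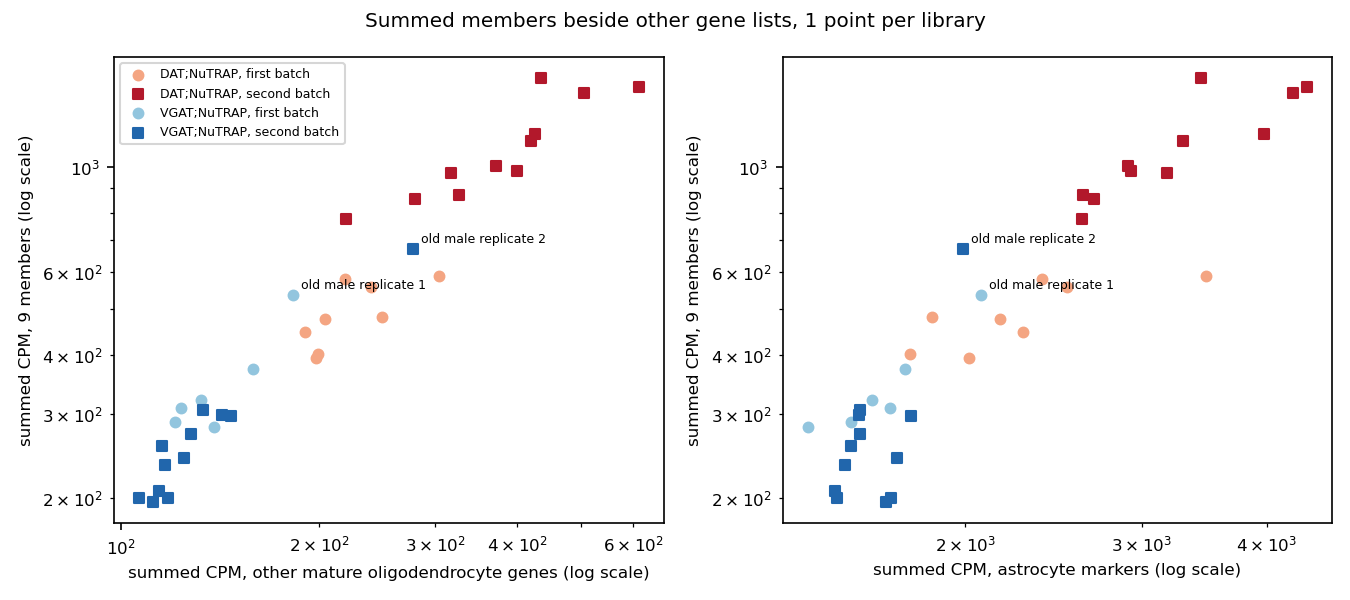
Summed CPM of the 9 genes (y axis, log scale) against that of other mature oligodendrocyte genes and of astrocyte markers (x axes, log scale), 1 point per library by model and batch. The DAT second-batch libraries lie at 776 to 1539 CPM on the y axis, apart from all others, and old male replicates 1 and 2 of VGAT stand above the other VGAT libraries.

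Reads of some members cannot be separated from those of a neighbouring gene if the counting ignored strand, a setting that the sources used here do not give. In GENCODE vM39, Mog (chr17:37321521-37334350, minus strand) shares 1474 of its 2283 exon bases with Zfp57 on the opposite strand, Cnp (chr11:100465730-100482936, plus) 670 bases with Dnajc7, Opalin (chr19:41045254-41065553, minus) 520 with Dntt, Mag (chr7:30598464-30614474, minus) 383 with Gm44662, Ermn (chr2:57934641-57942882, minus) 237 with Galnt5 and Mbp (plus) 554 with Gm58827. Mobp (chr9:119973770-120011273, plus) shares 219 exon bases with Gm38642 on its own strand. No overlap was found for Mal (chr2:127475142-127498615, minus) and Cldn11 (chr3:31203900-31218495, plus).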

How the data were processed

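Libraries were poly-A selected and directional (NEBNext Ultra II). The authors aligned reads to mm39 with STAR 2.7.10b and counted them with featureCounts. The featureCounts version, annotation and strand setting are not given in the sources used here. The deposited values are raw counts per gene, before the low-count removal, removal of astrocyte and microglia genes and batch correction described by the authors.

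From these counts, edgeR 4.0.16 (R 4.3.3) quasi-likelihood tests were run on all genes with TMM scaling, filterByExpr (minimum count 10), robust dispersion and Benjamini-Hochberg adjustment, with age and batch as terms. DESeq2 1.42.0, RLE scaling, library totals, other filters, left-out libraries and other terms were alternatives. Scripts were tested on simulated data. Correlations and SDs used log2(CPM + 0.5).

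The 9 genes and the gene lists were chosen with earlier results of these data known. Named genes were the members, the label genes, the lowest p in each list and the genes most like the members; others named in the lists of genes called in one direction (S1pr5, Hhip, Nfasc, Cntn2, Pcdh15, Myrf, Nkx2-2, Zfp488, Gal3st1) were added after their values were seen. Values of some genes on the lists are not reported here. Replicate numbers did not pair the samples: none of 9, 8 and 16 same-numbered pairs had a correlation of deviations over 0.1. Between replicates of a group, chi-square divided by its degrees of freedom was at least 5.45 in all 70 pairs, so no 2 replicates of a group agreed within sampling noise; libraries of different groups were not compared in this way. Intervals and limits cover counting error or spread between mice only.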

Additional observations from a re-analysis of the deposited data

Results flagged for a closer look

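In groups of 4 to 6 libraries of 1 model, batch and age, Dixon's criterion at 95% was applied to each member. It set 1 library apart in 15 of 63 tests. Chance gives about 1 in 20 for independent tests. The members were tested in the same libraries and most vary together, so the count cannot be set against that share. VGAT old male replicate 2 accounted for 8 of the 15. It was the highest old second-batch VGAT library for Mbp (365 CPM, next highest 160), Mobp (116, next 62.9), Mal (44.6, next 13.6), Cldn11 (23.5, next 6.31), Mag (29.3, next 13.5), Mog (9.55, next 3.24), Cnp (60.1, next 28.5) and Ermn (19.6, next 8.62). Its astrocyte and microglia levels stand in the report, and their part in this was not tested.

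In DAT libraries young male replicate 3 was high among second-batch young mice for Mbp (831 CPM) and Mobp (288 CPM), and young male replicate 2 among first-batch young mice for Mobp (188 CPM). Old male replicate 3 was high among first-batch old mice for Mal (27.9 CPM), and old female replicate 2 among second-batch old mice for Opalin (14.2 CPM). Among first-batch young mice, young female replicate 1 was low for Mag (7.34 CPM) and young female replicate 2 low for Mog (1.91 CPM).

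The batch effect differed between the models in a direct test (VGAT minus DAT, log2) for Mbp (−1.57), Mobp (−1.28), Mal (−1.59), Opalin (−3.35), Cldn11 (−1.69), Mag (−1.63), Mog (−2.32) and Cnp (−1.77).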

How the results depend on the processing

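Of the alternative values, 966 kept their direction and side of the threshold (or their count within 1.5 times, or their median within an SE). Another 38 changed sign, 30 counts or medians moved further, 16 values lost their call and 2 gained one. The DAT batch and the VGAT against DAT calls kept all 9 members under DESeq2, RLE scaling, library totals, no count filter and each left-out library. The DAT batch count was 5 with an astrocyte term, and the VGAT against DAT count 3 among first-batch libraries. In the VGAT batch comparison the count of 1 lower was 0 with the replicate block and 0 among old libraries, and 0 to 2 with each library left out. In DAT females 3 members were called higher by DESeq2 and 4 without a count filter, and 0 to 1 with a library left out (1 without old female replicate 3). Without a count filter 1 member was called lower in age by sex for DAT, 2 higher in VGAT males and 6 higher in age by sex for VGAT. The shares of all genes called without a count filter or with a library left out are not reported here, so these counts are not a result about the members. The cause of these changes was not tested.

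Signs turned as follows. DAT age with an astrocyte term gave Mbp −0.12, Mobp −0.10, Mal −0.19, Opalin −0.13, Cldn11 −0.28, Mog −0.042 and Ermn −0.085, and among first-batch libraries Mal −0.12. DAT batch with an astrocyte term gave Mobp −0.051. VGAT age with an astrocyte term gave Mbp −0.53, Mobp −0.48, Mal −0.51, Opalin −0.63, Cldn11 −0.55, Mag −0.20, Mog −0.54, Cnp −0.27 and Ermn −0.60, and among first-batch libraries Opalin −0.14 and Ermn −0.0079. VGAT batch gave Mal −0.065 with a sex term, −0.53 with the replicate block and −0.10 among young libraries, Cldn11 −1.84 and Ermn −1.04 with the replicate block, Mog 0.048 without an age term, 0.12 among old libraries and 0.14 with an astrocyte term, and Cnp 0.042 with an astrocyte term. With each library left out in turn, VGAT age gave Mbp −0.000194 to 0.35, Mobp −0.033 to 0.25, Mal −0.032 to 0.48, Opalin −0.23 to 0.68, Cldn11 −0.13 to 0.49 and Mog −0.030 to 0.60, and VGAT batch Mal −0.21 to 0.13, Mog −0.29 to 0.11 and Cnp −0.22 to 0.0070. The lowest VGAT age values came without old male replicate 2. The numbers do not pair the samples. The block left 7 of 9 members called in the DAT batch comparison and 7 in batch by cell type, with the shares of all genes not reported here.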
